A study of Mus musculus with 40 samples.

Results

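Transcripts of the MHC class I pathway were followed in the duodenum, the post-anastomotic ileum and the liver of mice after small bowel resection (SBR) or sham surgery. The set holds 10 of the 15958 genes of the table: the heavy chain genes *H2-Q10*, *H2-Q1*, *H2-K1*, *H2-D1* and *H2-T23*, the light chain gene *B2m*, the peptide transporter genes *Tap1* and *Tap2*, the loading factor gene *Tapbp* and the class I transactivator gene *Nlrc5*. *H2-Q10* and *H2-Q1* were selected on their measured differences between groups in the ileum and the liver, so there their values are given as a description with no test. The other 8 genes were chosen as known parts of the pathway. All mice were wild-type C57BL/6 males, 8 weeks old at surgery, and sham or SBR was followed from week 3 by 7 weeks of daily treatment, so that tissue was taken at week 10. The sham group and the SBR group received vehicle, and the SBR-WUSTL0717 group received 30 mg/kg of WUSTL0717, an oral LXR agonist. The labels put the resection at 50 to 60% of the small intestine, the study's methods give a larger extent, and the 2 sources were not reconciled; in sham surgery the bowel was cut and rejoined. No sham mice given WUSTL0717 were analysed here, so an effect of the agonist apart from SBR cannot be described. The duodenum and the ileum each gave 3 sham, 4 SBR and 4 SBR-WUSTL0717 libraries, and the liver gave 5, 8 and 5. The labels do not say whether libraries of different tissues came from the same mouse.

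Values are log2 TPM (TPM scales transcript abundance by length and library), after the authors' batch correction, in which the 22 intestinal libraries were batch 1 and the 18 liver libraries batch 2. The correction moved each gene's liver and intestinal levels towards each other, and 99.4% of genes ended with means within 1 log2 unit. Tissue and batch cannot be told apart, so levels were compared only within the intestine or within the liver. Reads per library are unknown, and low values are the least certain. The ileal gene *Fabp6* separated the intestinal regions, with means between 6.10 and 8.15 in the ileal groups and between -0.93 and -0.68 in the duodenal groups. All 10 genes passed the filter on low values (mean log2 TPM 1 or more) in each tissue. After the correction, passing does not show that a gene was expressed. The lowest value of *Fgg*, 4.38, was shared by 14 of the 22 intestinal libraries, and that of *Fgb*, 4.49, by 9. A few libraries stood apart from their group over the 8 genes chosen as parts of the pathway. The mean of those 8 log2 values was 8.59 in duodenal SBR library 1 against 6.59 to 7.28 in the other SBR libraries, and 5.45 in duodenal SBR-WUSTL0717 library 2 against 6.77 to 6.95. It was 5.54 in ileal SBR library 1 against 6.95 to 7.71, 5.06 in ileal SBR-WUSTL0717 library 2 against 6.00 to 7.05, 7.05 in liver SBR library 2 against 7.47 to 7.68, and 6.82 in liver sham library 2 against 7.13 to 7.33. Duodenal sham library 1 was also low, at 5.52 against 6.65 and 7.09. All of these libraries were kept.

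Class I molecules show peptides from inside the cell to CD8 T cells and natural killer cells. A heavy chain pairs with beta-2 microglobulin, the product of *B2m*, and is loaded in the endoplasmic reticulum with peptides that the TAP1 and TAP2 transporter brings in and that tapasin, the product of *Tapbp*, helps to fit. *H2-K1* and *H2-D1* encode the classical heavy chains K and D of these mice, whereas *H2-T23* encodes Qa-1, which binds leader peptides of other class I chains and is seen by inhibitory receptors of natural killer cells. *H2-Q10* encodes a class I chain that the liver secretes, and *H2-Q1* is another gene of the Q region. *Nlrc5* encodes a transactivator that is recruited to conserved boxes in front of classical class I genes by the factors bound there, and interferon induces it together with most of the pathway.

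Most of the set lies in the H2 complex. On GRCm38 (GENCODE M21), chromosome 17 holds *Tapbp* at chr17:33915899-33929292, *H2-K1* at chr17:33996017-34000347 on the minus strand, *Tap1* at chr17:34187553-34197225, *Tap2* at chr17:34203527-34216321, *H2-D1* at chr17:35262730-35267499, *H2-Q1* at chr17:35320405-35325099, *H2-Q10* at chr17:35470089-35474563 and *H2-T23* at chr17:36029773-36032855 on the minus strand. *B2m* lies at chr2:122147686-122153083 and *Nlrc5* at chr8:94434356-94527272. Class I heavy chains resemble each other, and the authors counted only uniquely aligned reads. Each gene was represented by its longest protein-coding transcript. Of the distinct 50-base windows of that transcript, *H2-Q10* shared 8.03% with transcripts of other genes, *H2-K1* 8.79%, *H2-D1* 14.3%, *H2-Q1* 22.9% and *H2-T23* 28.8%. In windows of 150 bases, the length of 1 read, the shares were 0 for *H2-Q10* and *H2-K1*, 1.79% for *H2-D1*, 4.64% for *H2-Q1* and 0.831% for *H2-T23*. Read pairs that lie wholly in a shared stretch align to more than 1 place and would not be counted. At the length of 1 read *H2-Q1*, which shared most with *H2-Q2*, had the largest share of such windows among these 5 genes.

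The promoters are shown because *H2-Q10* and the classical genes, which are close relatives, gave different values under WUSTL0717, and because the conserved boxes of class I promoters are known. RefSeq promoters (GRCm38.p6, 250 bases before to 50 after the start of transcription) were at hand for 7 of the 10 genes, not for *H2-Q1*, *Tap2* or *Nlrc5*. Capitals mark matches on either strand to the kappa B palindrome of enhancer A (GGGGA and its reverse complement TCCCC with T between them), to TTTC repeated after 2 bases (a core of the interferon response element), to TGACGC (the site alpha or X2 box) and to ATTGG (the CCAAT box of the Y element, read as CCAAT on the other strand). The *H2-Q10* promoter is chr17:35469839-35470138, that of *H2-K1* (the first of 2 overlapping entries) is chr17:34000298-34000597 on the minus strand, that of *H2-D1* is chr17:35262844-35263143 and that of *B2m* is chr2:122147437-122147736.
H2-Q10: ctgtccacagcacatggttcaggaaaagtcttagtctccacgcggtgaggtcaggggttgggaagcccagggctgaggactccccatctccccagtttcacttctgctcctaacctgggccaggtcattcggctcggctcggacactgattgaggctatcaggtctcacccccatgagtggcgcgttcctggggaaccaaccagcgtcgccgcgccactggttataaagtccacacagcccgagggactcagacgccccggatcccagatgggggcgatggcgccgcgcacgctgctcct
H2-K1: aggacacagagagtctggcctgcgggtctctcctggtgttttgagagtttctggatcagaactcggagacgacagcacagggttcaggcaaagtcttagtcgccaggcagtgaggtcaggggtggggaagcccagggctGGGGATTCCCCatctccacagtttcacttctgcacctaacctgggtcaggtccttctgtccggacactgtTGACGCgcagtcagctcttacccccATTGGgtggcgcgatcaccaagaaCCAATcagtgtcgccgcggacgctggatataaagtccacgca
H2-D1: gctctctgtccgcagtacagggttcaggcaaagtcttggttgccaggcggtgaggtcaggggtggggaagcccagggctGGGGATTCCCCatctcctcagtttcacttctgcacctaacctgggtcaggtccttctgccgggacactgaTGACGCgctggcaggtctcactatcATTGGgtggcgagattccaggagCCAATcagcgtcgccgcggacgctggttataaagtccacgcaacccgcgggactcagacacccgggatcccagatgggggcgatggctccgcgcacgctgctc
B2m: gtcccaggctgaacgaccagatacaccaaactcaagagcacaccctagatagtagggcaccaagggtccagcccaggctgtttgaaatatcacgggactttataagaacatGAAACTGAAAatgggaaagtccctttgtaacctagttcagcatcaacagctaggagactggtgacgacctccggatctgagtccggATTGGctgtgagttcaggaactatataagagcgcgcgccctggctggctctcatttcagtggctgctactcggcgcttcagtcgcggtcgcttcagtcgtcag

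Both classical genes held all the strings but the repeated TTTC, with 1 kappa B match, 1 TGACGC and 2 ATTGG matches each. The 11 letters of the kappa B match are rare, since 10 of 32851 promoters (0.0304%) hold them, whereas 7.4% hold TGACGC, 37.4% hold ATTGG and 3.44% hold the repeated TTTC. The *H2-Q10* window held none of the 4 strings. *B2m* and *H2-T23* each held 1 repeated TTTC and 1 ATTGG, *Tapbp* held 2 ATTGG and *Tap1* held 1. A direct repeat of the kind LXR binds, AGGTCA repeated after 4 bases or the looser GGTCA repeated after 5 that contains it, was found in none of the 7 windows, against 0.0152% and 0.0761% of all promoters. At such shares a match in 7 windows was unlikely from the start, and sequence outside the windows was not searched. The absence therefore carries no information on LXR. The matches given are of letters only, and they do not show whether a factor binds.

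In the duodenum, which was not among the tissues named for its choice, *H2-Q10* separated all 3 groups. The ileal libraries used for the choice may come from the same mice, and earlier results of these data were known. The duodenal tests are therefore not shown to be independent of the choice. *H2-Q10* stood at 5.35, 5.54 and 5.73 log2 TPM in the sham libraries, at 7.08, 6.87, 6.59 and 7.62 in the SBR libraries, and at 9.57, 9.10, 9.76 and 10.69 in the SBR-WUSTL0717 libraries. No value of a group overlapped with another group. The means were 5.54 ± 0.19 (SD, n = 3), 7.04 ± 0.44 (SD, n = 4) and 9.78 ± 0.67 (SD, n = 4). With WUSTL0717 *H2-Q10* rose against SBR by 2.74 on the log2 scale (SE 0.42), a 6.67-fold higher level (limma with Benjamini-Hochberg adjustment, adjusted p = 0.0209; exact permutation, two-sided, p = 0.0286, which is as low as these group sizes allow). Against sham the treated group was 4.24 log2 units higher (SE 0.46), 18.9-fold (limma, adjusted p = 0.00339; exact p = 0.0286). All folds given are of batch-corrected values, which the correction shifted and rescaled, and need not equal folds of the TPM as measured. *H2-Q10* was the only 1 of the 10 genes called in either comparison with the treated duodenum, where 0.258% of 15093 tested genes were called against SBR and 0.802% against sham. By p it ranked 20th against SBR and 3rd against sham among all tested genes.

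The vehicle group alone was less certain. SBR lay 1.50 log2 units above sham for *H2-Q10* (SE 0.46), the groups did not overlap, and the exact permutation p was again 0.0286, but the adjusted p of limma was 0.274. In that comparison 0% of genes were called, 16.1% had an unadjusted p under 0.05, and 3.41% had one and were higher. That background is unstable, since 63 genes were called higher and 526 lower without SBR library 1, and 92 higher and 4 lower after each library was centred on its median, while none of the 10 genes was called in either setting. Against SBR, dropping 1 library at a time lost the call in 6 of 8 cases. The adjusted p was 0.0579, 0.0692 and 0.0839 without SBR library 1, 2 or 3, and 0.0518, 0.0937 and 0.0806 without SBR-WUSTL0717 library 1, 3 or 4. It was kept without SBR library 4 (0.0474) and without SBR-WUSTL0717 library 2 (0.0397), and the difference stayed between 2.44 and 2.97 throughout. Against sham it held in all 7 such fits, with adjusted p between 0.0073 and 0.0259. Without the variance moderation of limma, comparing only the groups in question, the adjusted p was 0.139 against SBR and 0.109 against sham. A replicate block in limma also left *H2-Q10* uncalled in both comparisons.

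In the post-anastomotic ileum *H2-Q10* was flat across the vehicle groups and lay apart in the treated one. It stood at 4.83, 4.52 and 4.70 in sham, at 4.52, 4.61, 4.78 and 4.60 in SBR, and at 7.22, 7.61, 7.13 and 7.66 in SBR-WUSTL0717. The sham and SBR libraries overlapped fully, and the treated libraries lay above all of them. The treated mean was 7.40 ± 0.27 (SD, n = 4) against 4.63 ± 0.11 (SD, n = 4) in SBR, 2.78 log2 units or 6.85-fold higher, and 2.72 log2 units above sham. SBR differed from sham by -0.05 (SE 0.24). These ileal values helped to choose the gene and are not tested. Hepatocyte markers had tied lowest values in the intestine between 3.48 (*Serpina1c*) and 5.29 (*Ahsg*), and the ileal vehicle values of *H2-Q10* lie in that range. Whether *H2-Q10* was near its own lowest value there, which would limit any step from sham to SBR, was not tested. The difference between the treated and vehicle groups after SBR was 2.74 in the duodenum and 2.78 in the ileum, so that the effects differed by 0.04 (SE 0.47), whereas the step from sham to SBR was 1.55 (SE 0.50) smaller in the ileum. The libraries of both regions carry the same batch label and were adjusted together, and their levels are ordered here on that scale. From low to high the means were ileal SBR and ileal sham (4.63 and 4.68, overlapping), duodenal sham (5.54), duodenal SBR and treated ileum (7.04 and 7.40, overlapping) and treated duodenum (9.78).

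**Figure D1:**
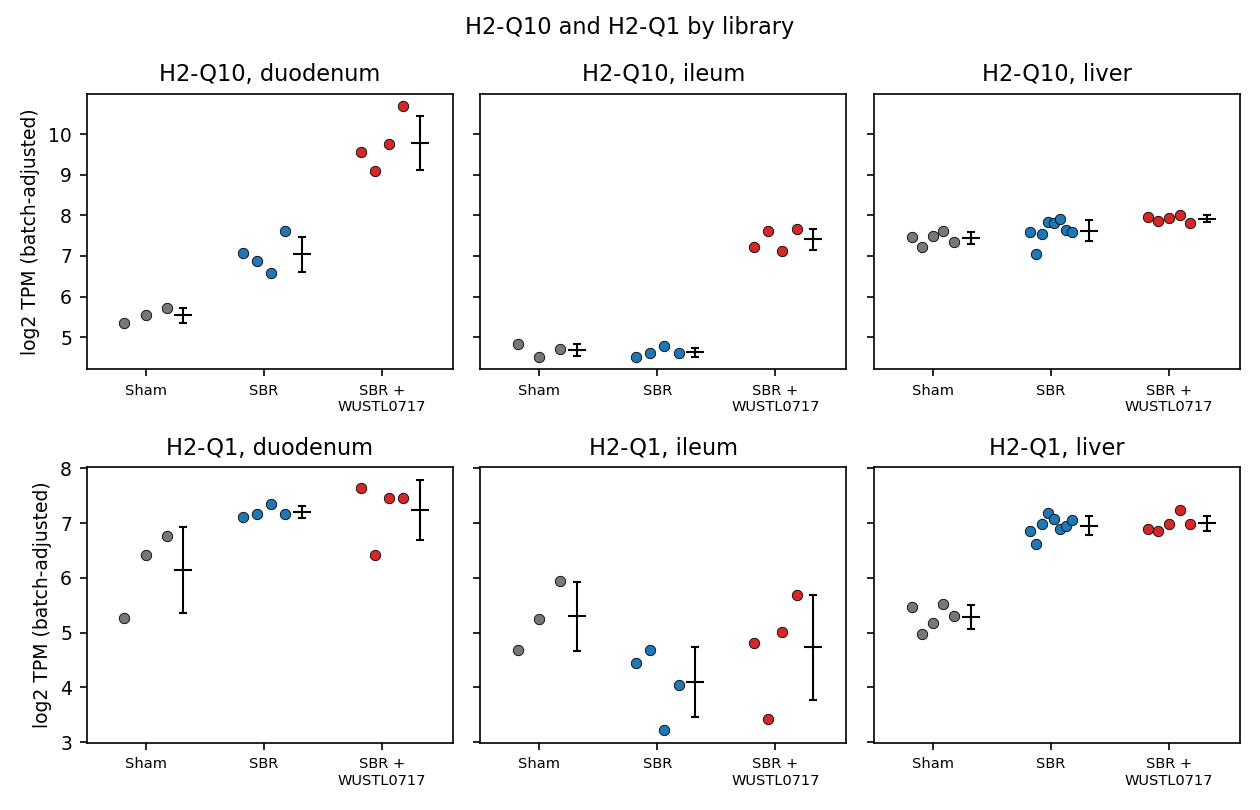
*H2-Q10* (top) and *H2-Q1* (bottom) in the duodenum, ileum and liver, as log2 TPM after batch correction. Each point is 1 library, bars show the mean and SD of a group, and the axis does not start at 0. The SBR-WUSTL0717 points of *H2-Q10* lie between 9.10 and 10.69 in the duodenum and between 7.13 and 7.66 in the ileum, above all vehicle points of the region, and the liver points of *H2-Q1* part between sham and both SBR groups.

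In bulk tissue, fewer cells of a type and less RNA per cell cannot be told apart, so levels of cell type markers are given beside the result. The log2 of the summed TPM of 10 enterocyte markers ranged from 12.29 to 13.42 in sham duodenum, from 12.98 to 13.23 in SBR and from 13.77 to 14.68 in SBR-WUSTL0717, and 2 of the 10 (*Fabp2* and *Mttp*) were called higher in the treated group than in sham, beside 0.749% of all tested genes. In the ileum the enterocyte sums were 11.43 to 12.09, 10.45 to 12.28 and 12.00 to 12.34, with none of 10 called in the 3 comparisons. Because *H2-Q10* is known as a liver gene, 12 hepatocyte markers were summed as well. They ranged from 11.30 to 11.48, from 9.48 to 11.29 and from 9.75 to 11.71 in the duodenal groups, with none of 12 called. In the ileum they ranged from 10.43 to 10.93 in sham, from 10.03 to 11.27 in SBR and from 10.72 to 13.80 in SBR-WUSTL0717, again with none called. In the treated ileum 11 of the 12 markers were above SBR, with a median difference of 0.66 beside 0.00 over all genes, and 12 of 12 were above sham, with a median of 0.64 beside 0.07. In the treated duodenum 9 of 12 were above SBR (median 0.13 beside 0.04) and 4 of 12 above sham (median -0.07 beside -0.32). The value of 13.80 came from ileal library 2, in which *Alb* stood at 12.70, and without that library the ileal difference of *H2-Q10* was 2.71 against SBR. Of the 12 markers 6, among them *Alb* and *Ttr*, were above their lowest tied value in all 22 intestinal libraries, and the other 6 sat at it in 4 to 14 libraries, *Fgg* in the most. *Cps1* was at 7.39 or more in each of the 22 libraries, so the intestinal sum of the 12 need not reflect hepatocyte RNA alone. Acinar pancreas markers varied within the duodenal groups, from 6.65 to 10.48, from 4.71 to 9.90 and from 7.55 to 10.71. The part of enterocytes, hepatocytes and pancreas in the result was not tested.

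LXR targets give a scale for the response in the same libraries. Of 12 known targets, 2 rose in the treated duodenum against SBR, *Scd1*, the stearoyl-CoA desaturase, by 6.34 and the sterol exporter gene *Abca1* by 3.55, where 0.252% of all genes were called higher. In the ileum 5 of 12 rose, among them *Abca1* by 2.79, *Scd1* by 3.09 and the sterol transporter genes *Abcg5* by 2.68 and *Abcg1* by 2.30, beside 0.0697% of all genes called higher. None of the 12 fell. In the liver none was called in the same comparison, with 3 higher at an unadjusted limma p under 0.05, beside 8.5% of all genes.

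The classical genes did not follow *H2-Q10* under WUSTL0717. *H2-K1* stood at 7.36, 9.17 and 9.35 in sham duodenum, at 11.28, 9.80, 9.93 and 10.25 in SBR and at 10.32, 9.37, 11.02 and 10.99 in SBR-WUSTL0717. Both SBR groups lay above sham with no overlap, and they overlapped with each other. The difference was 1.69 (SE 0.62) for SBR and 1.80 (SE 0.62) for the treated group against sham, with adjusted p of 0.274 and 0.214 in limma. Without sham library 1, the lowest, they were 1.06 and 1.17. *H2-D1* stood at 7.44, 8.74 and 9.24, at 11.42, 9.60, 9.77 and 10.44, and at 9.28, 7.35, 9.39 and 9.42. The SBR libraries of *H2-D1* thus lay above both other groups. The differences were 1.84 (SE 0.66) for SBR against sham (limma adjusted p = 0.274) and -1.45 (SE 0.61) for treatment against SBR (limma adjusted p = 0.844), each with an exact permutation p of 0.0286. Without SBR-WUSTL0717 library 2, the difference from SBR was -0.95. *H2-T23*, the Qa-1 gene, was 1.33 (SE 0.64) above sham after SBR with no overlap (limma adjusted p = 0.325), and *H2-Q1* was 1.05 (SE 0.46) above sham with no overlap (limma adjusted p = 0.297). Without sham library 1 these 2 differences were 0.81 and 0.62.

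Over the 10 genes in the duodenum, none was called between SBR and sham by limma, 4 were higher and 0 lower at an unadjusted p under 0.05, and the unmoderated two-sample test called none either. All 10 differences were above 0, with a median of 1.03, beside a median of -0.36 over all tested genes, of which 30% were above 0. Without sham library 1 those of *B2m*, *Tap2* and *Tapbp* were -0.01, -0.33 and -0.14, and without SBR library 1 that of *Tap2* was also below 0. The groups did not overlap for 5 of the 10 (*H2-Q10*, *H2-Q1*, *H2-K1*, *H2-D1* and *H2-T23*, that is, the heavy chains), all higher, beside 3.41% of all tested genes. Treated against SBR, 3 genes lay lower with no overlap, beside 1.05% of all tested genes. Besides *H2-D1* these were *Tap1*, at 6.15, 4.19, 4.50 and 5.01 in SBR and 3.88, 2.55, 4.06 and 3.69 in SBR-WUSTL0717, and *Nlrc5*, at 5.50, 3.05, 2.91 and 3.58 in SBR and 2.64, 1.55, 2.35 and 2.39 in SBR-WUSTL0717. The differences were -1.42 (SE 0.50; limma adjusted p = 0.671) for *Tap1* and -1.53 (SE 0.53; limma adjusted p = 0.647) for *Nlrc5*. Without SBR library 1, which was the highest in both genes, they were -1.03 and -0.95. *B2m*, *Tap2* and *Tapbp* overlapped between all duodenal groups, with differences from -0.86 to 0.64. The summed level of 8 cytotoxic T and NK cell markers ranged from 5.22 to 6.22 in sham, from 5.47 to 6.18 in SBR and from 4.72 to 5.89 in SBR-WUSTL0717, with none of 8 called. The macrophage sum ranged from 8.24 to 10.16, from 6.76 to 8.06 and from 7.15 to 8.32 in the same groups. The dendritic cell sum ranged from 3.11 to 4.58, from 1.92 to 4.04 and from 2.29 to 2.56. The part of these cells in the class I differences was not tested.

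**Figure D2:**
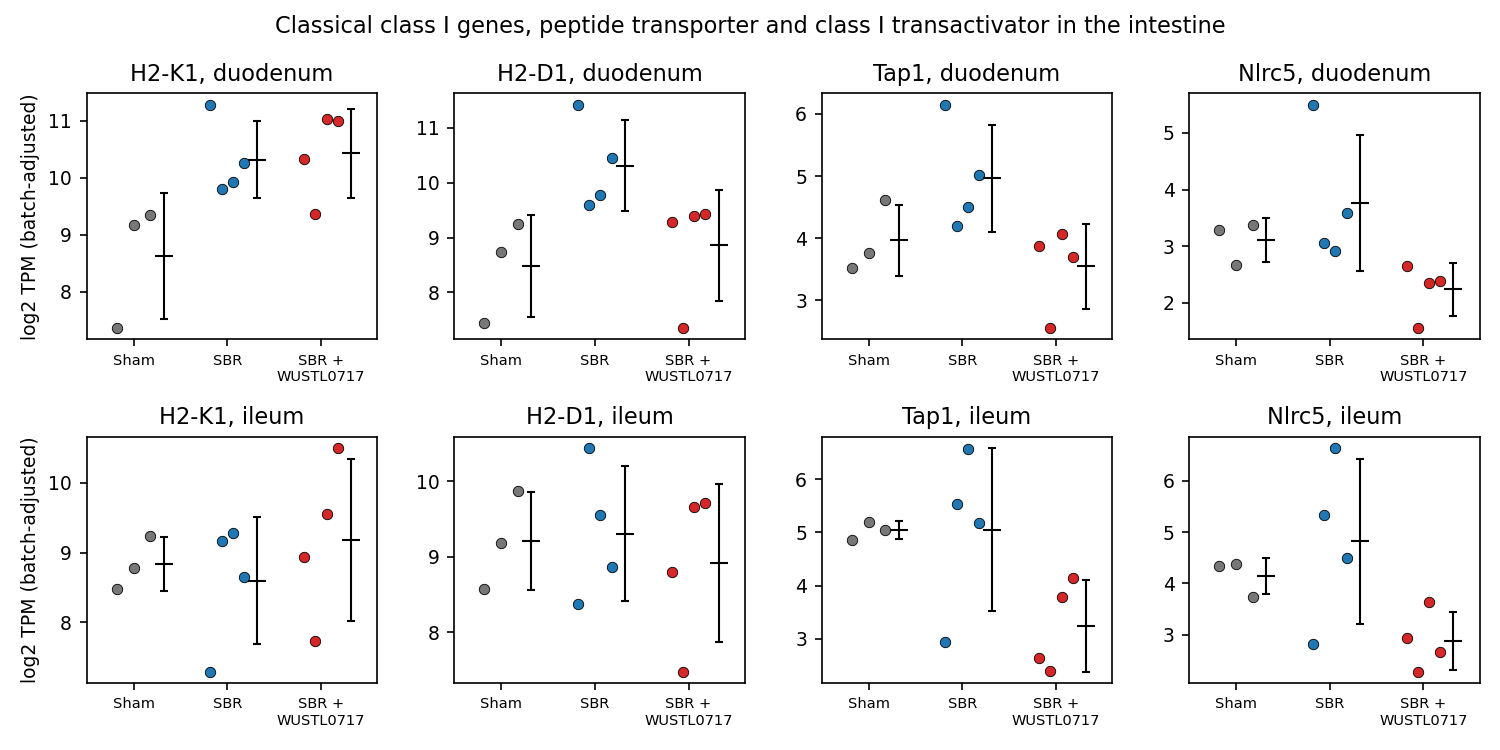
*H2-K1*, *H2-D1*, *Tap1* and *Nlrc5* in the duodenum (top) and ileum (bottom), as log2 TPM after batch correction. Each point is 1 library and bars show the mean and SD of a group; axes differ between panels and do not start at 0. *Tap1* and *Nlrc5* are lowest in the treated group in both regions, where their means are 3.54 and 2.23 in the duodenum and 3.24 and 2.88 in the ileum, and single libraries reach far from their group.

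In the ileum none of the 8 genes that can be tested there was called in any of the 3 comparisons. At an unadjusted limma p under 0.05 there were 0 between SBR and sham (8.46% of all genes), 2 lower between treatment and SBR (2.75%) and 2 lower between treatment and sham (4.35%), and the unmoderated test called none. Over all genes 0.349%, 0.0697% and 2.17% were called. *Tap1* and *Nlrc5* were the 2 genes lower than SBR at an unadjusted p under 0.05. *Tap1* stood at 4.86, 5.20 and 5.05 in sham, at 2.93, 5.53, 6.56 and 5.18 in SBR and at 2.64, 2.39, 3.78 and 4.15 in SBR-WUSTL0717. *Nlrc5* stood at 4.34, 4.37 and 3.74, at 2.81, 5.34, 6.64 and 4.50, and at 2.94, 2.28, 3.63 and 2.66. In both genes SBR library 1 was as low as the treated libraries, whereas the other SBR libraries lay above them. Treated against SBR, the differences were -1.81 (SE 0.65; limma adjusted p = 0.606) for *Tap1* and -1.95 (SE 0.64; limma adjusted p = 0.56) for *Nlrc5*. They ranged from -2.52 to -1.31 and from -2.62 to -1.34 when 1 library was left out, largest without SBR library 1 (limma adjusted p = 0.131 and 0.126). Against sham, *B2m* (11.07, 11.18 and 11.55 in sham, 9.51, 8.81, 9.36 and 10.53 in SBR-WUSTL0717) was 1.71 log2 units lower (limma adjusted p = 0.182), and *B2m*, *Tap1* and *Nlrc5* made up the 3 of 8 genes whose treated libraries lay below all sham libraries, beside 3.73% of all tested genes. With 4 libraries against 3 the exact p of each was 0.0571.

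The heavy chain genes other than *H2-Q10* overlapped between most ileal groups. *H2-K1* differed by -0.23 between SBR and sham and by 0.58 between treatment and SBR, *H2-D1* by 0.09 and -0.39, and *H2-T23* by -0.29 and -0.75, each with overlapping groups. Without SBR-WUSTL0717 library 2 the second difference was 1.06 for *H2-K1*, 0.09 for *H2-D1* and -0.20 for *H2-T23*. *H2-Q1* (described only) stood at 4.69, 5.25 and 5.95 in sham, at 4.45, 4.68, 3.22 and 4.05 in SBR and at 4.81, 3.42, 5.01 and 5.69 in SBR-WUSTL0717. The SBR libraries lay below every sham library, by 1.20 on average, whereas in the duodenum they had lain above them. *Tapbp* and *Tap2* differed from sham by between -1.06 and -0.60 in both SBR groups with overlap. Without SBR library 1 the difference of *Tap2* after SBR was -0.21, and without SBR-WUSTL0717 library 2 that of *Tapbp* with treatment was -0.48. The median of the 8 genes was -0.26, -0.60 and -1.05 in the 3 comparisons in the order given, beside 0.07, 0.00 and 0.07 over all genes. The cytotoxic T and NK cell sum ranged from 5.47 to 5.85 in sham, from 4.61 to 5.70 in SBR and from 4.17 to 4.96 in SBR-WUSTL0717, with none of 8 markers called and 6 of 8 lower with treatment than in sham at an unadjusted limma p under 0.05, beside 4.35% of all genes. The macrophage sum ranged from 9.37 to 9.87, from 8.95 to 10.06 and from 8.60 to 9.09 in the same groups. The B and plasma cell sum ranged from 5.31 to 6.34, from 4.81 to 6.03 and from 4.10 to 5.57. Stromal and endothelial sums went the other way, with medians of 7.10 and 5.73 in sham and of 8.04 and 6.05 with treatment. The part of these cells in the lower class I values was not tested.

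Genes that feed or control the pathway were followed from lists of known genes. Immunoproteasome and activator subunits, which cut and prepare peptides, gave 2 calls among 18 supply and loading genes in the treated ileum against sham, where 0.514% of all tested genes were called lower. *Psme1* was 1.87 log2 units lower (limma adjusted p = 0.0233) and *Psmb8* 2.26 lower (limma adjusted p = 0.042). Among 27 interferon-induced genes in the same comparison, *Ubd* fell by 3.75 and *Zbp1* fell by 2.61. Treated against SBR, none of the 27 was called in the ileum by limma, 15 were lower at an unadjusted p under 0.05, beside 2.75% of all genes, and their median was -1.09, beside 0.00 over all genes. *Irf1*, an interferon-activated regulator of class I genes, was 1.77 lower in that comparison (limma adjusted p = 0.484). In the duodenum none of these supply, regulator or interferon genes was called in any comparison. At an unadjusted p under 0.05, 5 of 26 interferon-induced genes were higher and 0 lower in SBR against sham, beside 3.41% and 12.7% of all genes, and 1 was higher and 6 lower in treatment against SBR, beside 3.66% and 1.65%. Of 19 further class I genes tested in the duodenum and 20 in the ileum, none was called by limma in the comparisons within a region. At an unadjusted p under 0.05 at most 1 was higher and at most 3 lower in each, beside 3.41% to 9.75% of all genes higher and 1.65% to 12.7% lower. Class II genes, whose products present peptides to helper T cells, gave no call in either region in these comparisons. At an unadjusted limma p under 0.05, 6 of 7 were lower in the duodenum with treatment than in SBR, beside 1.65% of all genes, with a median of -1.52. In the ileum 5 of 8 were lower with treatment than in sham by the same measure, beside 4.35% of all genes, and 5 of 8 were lower with no overlap, beside 3.73%, with a median of -1.49.

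In sham mice the 2 intestinal regions gave no call among the 8 genes (0 at an unadjusted limma p under 0.05; 0 by the unmoderated test), beside 14.6% of all tested genes called and 31.5% with an unadjusted p under 0.05. Duodenal values were lower in 7 of the 8, by up to 1.42 (*H2-T23*, 0.90 without duodenal sham library 1), beside a median of -0.52 over all genes, and *Tap1* and *Nlrc5* were 1.07 and 1.04 lower with no overlap, beside 30.8% of all genes. Between the sham regions, 4 of 18 supply genes were called lower in the duodenum, as were 2 of 20 regulators (1 higher), 2 of 11 receptor and kinase genes (1 higher), 2 of 27 interferon-induced genes and 2 of 8 class II genes, and 1 of 20 further class I genes was higher. Over all tested genes 10.8% were called lower and 3.83% higher. With 3 libraries against 3 no exact p can be below 0.1. *H2-Q10* lay 0.86 higher in sham duodenum than in sham ileum with no overlap, and *H2-Q1* lay 0.85 higher with overlap (0.54 without duodenal sham library 3 or without ileal sham library 1, and 1.29 without duodenal sham library 1). The effect of WUSTL0717 after SBR did not differ between the regions in any of the 8 genes by limma (0 at an unadjusted p under 0.05, beside 3.33% of all genes), nor did the effect of SBR (*H2-K1* at an unadjusted p of 0.0486, adjusted p = 0.361; 13.8% of all genes at an unadjusted p under 0.05), where 0.0251% and 0.0754% of genes were called. Centring each library on its median moved the share of all calls that were higher from 26.2% to 58.3% between the sham regions and from 41.7% to 18.3% for the SBR effect. The difference in SBR effect, ileum minus duodenum, had a median of -1.42 over the 8 genes beside 0.44 over all genes, and its standard errors lay between 0.90 and 1.01.

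**Figure D3:**
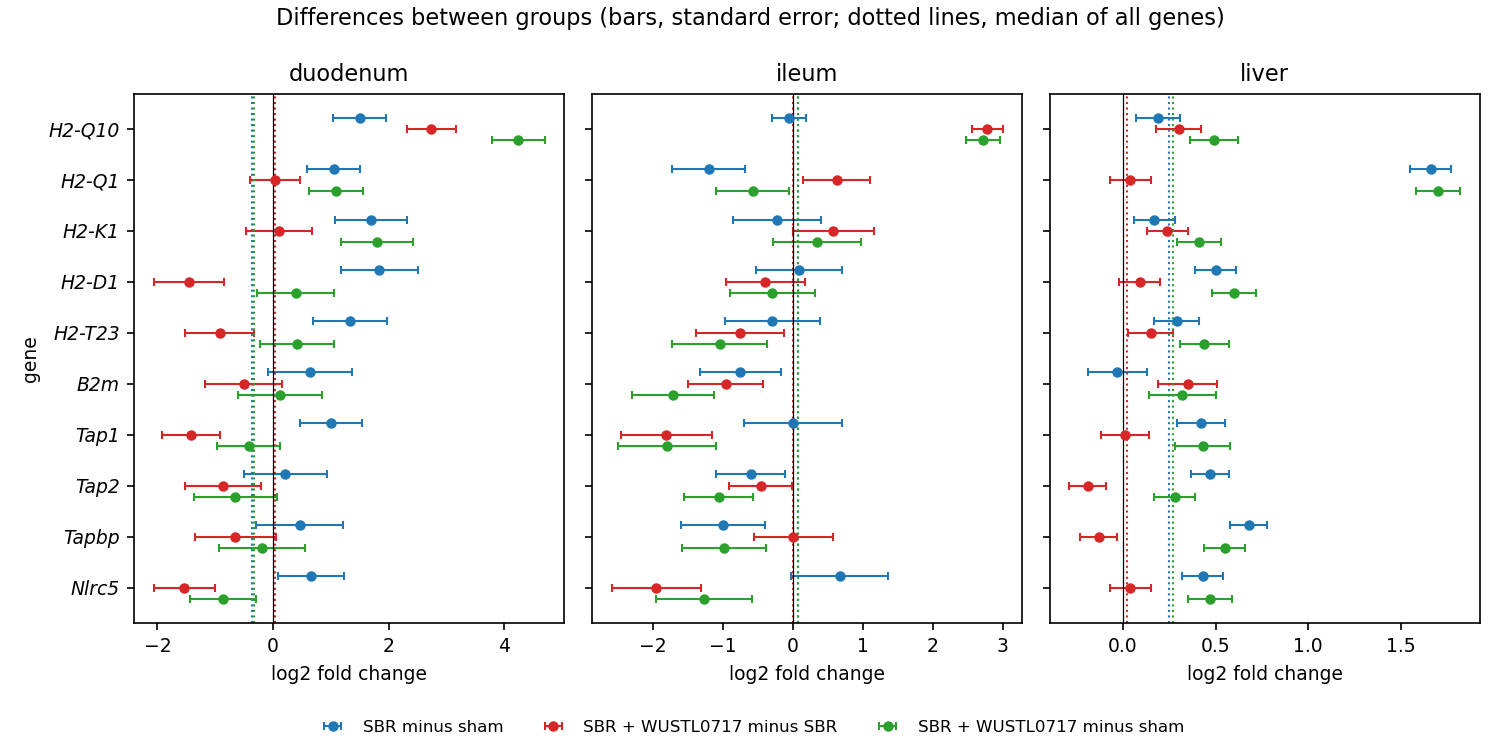
Log2 fold changes of the 10 genes in the duodenum, ileum and liver for the 3 comparisons of groups. Points are limma estimates, bars are their standard errors and dotted lines mark the median of all tested genes; the axes of the panels differ. In the duodenum *H2-Q10* lies at 1.50, 2.74 and 4.24, whereas *H2-D1*, *Tap1* and *Nlrc5* lie right of 0 for SBR and left of 0 for treatment against SBR, and the liver points cluster between -0.19 and 0.68 apart from *H2-Q1*.

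The liver showed small differences with little spread. After SBR 5 of the 8 testable genes rose against sham, and 41.9% of 15901 tested genes were called, 37.4% higher. *Tapbp*, the tapasin gene, ranged from 6.40 to 6.85 (median 6.73) in sham and from 6.95 to 7.56 (median 7.43) in SBR, and rose by 0.68 (SE 0.10; limma adjusted p = 2.88e-05; exact permutation p = 0.000777, the lowest these group sizes allow). Its groups did not overlap. *Tap2* ranged from 3.78 to 4.30 and from 4.17 to 4.74 and rose by 0.47 (SE 0.10; limma adjusted p = 0.00121). *H2-D1* ranged from 9.35 to 9.75 and from 9.59 to 10.27 and rose by 0.50 (SE 0.11; limma adjusted p = 0.00143). In *Tap2* and *H2-D1* only SBR library 2 overlapped with sham. *Nlrc5* rose by 0.43 (SE 0.11; limma adjusted p = 0.00334) and *Tap1* by 0.42 (SE 0.13; limma adjusted p = 0.0169), with overlapping groups. *H2-T23* (0.29), *H2-K1* (0.17) and *B2m* (-0.03) were not called, with adjusted p of 0.0589, 0.209 and 0.894.

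Values over the whole liver table were also higher after SBR. The median over all tested genes was 0.25 for SBR against sham, 0.02 for treatment against SBR and 0.27 for treatment against sham, and the median of the 8 genes was 0.42, 0.07 and 0.43. Relative to the median of all genes *Tapbp* was 0.44 higher after SBR, *H2-D1* 0.26, *Tap2* 0.23, *Nlrc5* 0.18 and *Tap1* 0.17. When each library was centred on its median, *Tapbp*, *H2-D1* and *Tap2* kept their call, *Tap1* (0.11, limma adjusted p = 0.36) and *Nlrc5* (0.12, limma adjusted p = 0.207) lost it, and *B2m* was called lower at -0.34 (limma adjusted p = 0.00826). *H2-K1* and *H2-T23* turned to -0.14 and -0.02. The centring also moved the share of all called genes that were higher from 89.3% to 41.5%. Leaving out SBR library 2 added *H2-K1* (0.24, limma adjusted p = 0.0159) and *H2-T23* (0.35, 0.00742) to the calls, leaving out sham library 4 added *H2-T23* (0.35, 0.0364), and leaving out sham library 2 removed *Tap1* (0.29, 0.0725).

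*H2-Q1* had by far the largest liver difference of the set, as the choice of the gene required. It stood between 4.97 and 5.52 (median 5.31) in sham, between 6.62 and 7.18 (median 6.96) in SBR and between 6.86 and 7.23 (median 6.99) in SBR-WUSTL0717. The SBR groups lay above all sham livers, by 1.66 and 1.70 log2 units or 3.16- and 3.26-fold, and overlapped with each other. Its neighbour in sequence, *H2-Q2*, rose by 0.57 (SE 0.13; limma adjusted p = 0.00143). *H2-Q10* stood between 7.23 and 7.61 (median 7.47), between 7.05 and 7.92 (median 7.62) and between 7.81 and 8.01 (median 7.93). The treated livers lay above all sham livers, by 0.49, and overlapped with SBR, from which they differed by 0.30. Its median-relative difference from sham was 0.22 with treatment and -0.05 with SBR alone.

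WUSTL0717 moved none of the 8 genes past the threshold in the liver against SBR. No gene was called by limma or by the unmoderated test, 2 were higher at an unadjusted p under 0.05 (8.5% of all genes), and 4.1% of all tested genes were called. *H2-K1* nevertheless separated the groups: it ranged from 9.67 to 10.29 (median 10.18) in SBR and from 10.33 to 10.41 (median 10.34) with treatment, 0.24 higher with no overlap (limma adjusted p = 0.255; exact permutation p = 0.00466), beside 1.23% of all genes higher with no overlap. *B2m* was 0.35 higher (limma adjusted p = 0.278), and 0.23 higher without SBR library 2. After centring, *B2m* (0.36, limma adjusted p = 0.0153) and *H2-K1* (0.24, 0.0284) were called, and 58.4% of called genes were higher in place of 35.1%. *Tap2* and *Tapbp* lay 0.19 and 0.13 lower, and the other 4 genes differed by 0.01 to 0.15.

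Against sham, 6 of the 8 genes rose in treated livers, beside 28.8% of all genes called and 27.9% called higher. These were *Tapbp* by 0.55, *H2-D1* by 0.60, *Nlrc5* by 0.47, *H2-K1* by 0.41, *H2-T23* by 0.44 and *Tap1* by 0.43 (limma adjusted p from 0.00214 to 0.0381). All but *Tap1* had treated livers above every sham liver, 5 of 8 genes beside 27.4% of all genes. *Tap2* (0.28) and *B2m* (0.32) were not called, with adjusted p of 0.0699 and 0.177. After centring only *Tapbp* and *H2-D1* were called, and 54.5% of all calls were higher in place of 96.9%. Without sham library 2 *Tapbp*, *H2-D1* and *Nlrc5* were called, and *H2-K1* (limma adjusted p = 0.0576), *H2-T23* (0.0703) and *Tap1* (0.122) were not. *H2-T23* was also lost without treated library 1 (0.0564), and *Tap1* without sham library 1 or 5 or treated library 1, 4 or 5 (0.0563, 0.0833, 0.0808, 0.0892 and 0.056).

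**Figure D4:**
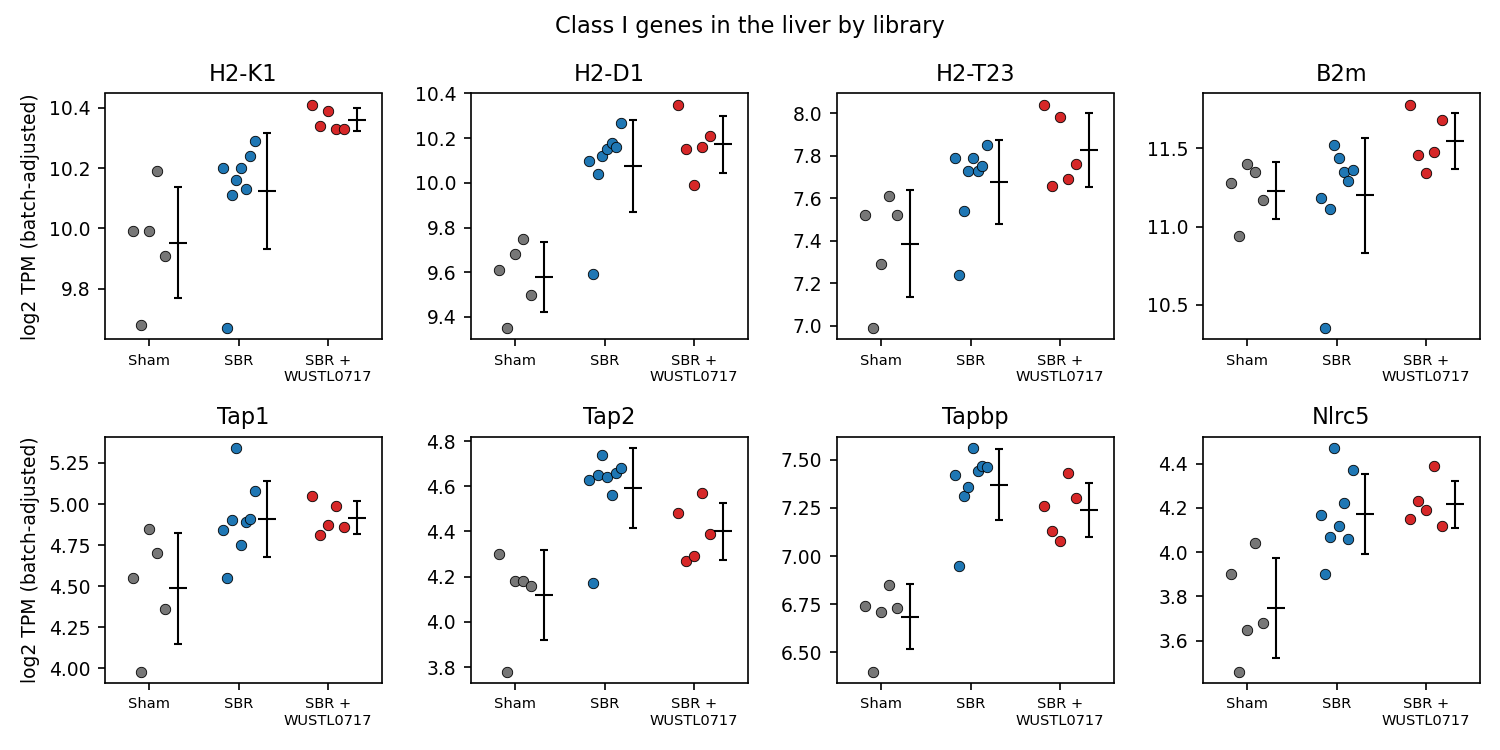
The 8 pathway genes in the liver, as log2 TPM after batch correction. Each point is 1 library and bars show the mean and SD of a group; axes differ between panels, span small ranges and do not start at 0. *Tapbp* is at 6.95 or more in all SBR livers and at 6.85 or less in sham, *H2-K1* is at 10.33 or more in all treated livers, and SBR library 2 is the lowest SBR point in every panel.

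Lists of related genes are read here against the 37.4% of all liver genes called higher and 4.47% called lower after SBR. All 8 class II genes rose after SBR, among them *H2-Eb1* by 1.88 and the invariant chain gene *Cd74* by 1.66, and 5 of the 8 fell again with treatment against SBR, *H2-Eb1* by 0.75 (limma adjusted p = 0.012), beside 2.66% of all genes called lower. Of 20 further class I genes 12 rose and 1 fell after SBR, led by *H2-M2* (1.84) and by the stress ligands of the NKG2D receptor *Raet1d* (1.62) and *Raet1e* (1.20), while *H2-Q4* rose by 0.72. Of 27 interferon-induced genes 24 rose, *Ubd* by 3.47, *Cxcl10* by 1.56 and *Oas1a* by 1.37, with a median of 0.95. Of 20 regulators of class I transcription 14 rose and 1 fell, including *Irf8* by 1.08 and the class II transactivator gene *Ciita* by 1.06, both above the 0.43 of *Nlrc5*. Of 11 interferon receptor and kinase genes 9 rose (*Ifngr1* by 0.95), whereas peptide supply gave 4 calls of 18, a smaller share than that of all genes, with *Psme1* and *Psmb10* higher by 0.42 each and a median of 0.21. The medians of the further class I genes (0.42) and of the regulators (0.43) were close to the 0.42 of the 8 pathway genes. With treatment against SBR, *Ubd* fell by 1.21 and *H2-M2* fell by 0.64, and no regulator, receptor or supply gene was called.

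Levels of other cell types moved in these livers as well. The sum of 4 stromal markers ranged from 6.18 to 6.91 in sham, from 8.08 to 8.89 in SBR and from 7.15 to 8.18 in SBR-WUSTL0717, and 3 of the 4 were called higher after SBR, lower with treatment against SBR and higher with treatment against sham, beside 37.4%, 2.66% and 27.9% of all liver genes called in those directions. Macrophage markers (9 genes) ranged from 8.38 to 8.85, from 8.84 to 9.80 and from 9.17 to 9.60, with 4 of 9 called higher after SBR, and both dendritic cell markers were called higher, their sum ranging from 2.61 to 2.98, from 3.92 to 4.54 and from 3.38 to 4.26. Cytotoxic T and NK cell markers ranged from 4.95 to 5.28, from 5.34 to 5.83 and from 5.14 to 6.09, with 4 of 8 called higher after SBR. The counts of macrophage and of T and NK cell markers are near the 37.4% of all liver genes called higher. Of 12 hepatocyte markers 6 were called lower and 1 higher after SBR, and their sum ranged from 11.45 to 11.88, from 10.58 to 11.61 and from 11.44 to 11.95. Which cells carried the class I transcripts was not tested.

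Across the 22 intestinal libraries the genes whose values were most like those of *H2-Q10* were *Acaa1b* (Pearson r = 0.92), *Aldh3a2* and *Me1* (0.90 each), and *Sod1* and *Ces2b* (0.89 each). Within the set *H2-K1* and *H2-Q1* came closest, at 0.64 and 0.60, whereas *H2-D1* was at 0.00, *Tap1* at -0.43 and *Nlrc5* at -0.61, and *Abca1* was at 0.38. *H2-K1* itself was most like *Ube2l6* (0.84), then *Tor1a*, *Mocos* and *Metrnl* (0.81 each) and *Mogat2* (0.80), with *H2-Q1* at 0.72 and *H2-D1* at 0.70. In the 18 livers *H2-Q10* was most like *Ghitm*, *Rwdd1*, *Opa3*, *Lamp1* and *Nfs1* (0.95 each), and *H2-K1* (0.89) and *B2m* (0.83) were closest within the set. *H2-K1* in the liver was most like *Slc22a18* (0.94), *Vcp* and *Mocos* (0.93 each), and *Tpi1* and *BC004004* (0.92 each). These libraries share groups, a batch and, in the intestine, 2 regions, so the values of r describe the libraries and carry no test.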

How the data were processed

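The deposited table held log2 TPM values of 40 libraries. Its header has 1 name fewer than the table has columns; names were assigned to the columns after the gene names, as R writes such tables, and under that assignment *Fabp6* separated the intestinal regions, which does not check the groups within a region. According to the methods and labels, the authors depleted ribosomal RNA, aligned paired reads of 150 bases to GRCm38 (Ensembl) with STAR, counted unique, unambiguous reads with featureCounts, scaled them by TMM and TPM, took log2 and adjusted batches with ComBat, which can produce the 2752 values below 0. Depth per library is unknown. Within each tissue, the 3 groups were fitted together with limma 3.58.1 (R 4.3.3; variance trend) on genes whose mean was 1 or more, with Benjamini-Hochberg adjustment over all of them and a threshold of 0.05; contrasts between regions used both regions. Fold changes are differences of log2 values. P-values measure the spread between libraries; separate mice per library are not stated in the labels. Single genes were also compared by exact two-sided permutation. The fits were tested on simulated data. Transcript windows of 50 and 150 bases were compared with GENCODE M21, and promoters were taken from RefSeq. Figures were drawn with matplotlib 3.10.9 in Python 3.11.15.

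The genes and lists were chosen with earlier results of these data known. Named were all 10 genes, at most 4 per list (called with the smallest p, otherwise of largest change) and the 5 genes most like *H2-Q10* and *H2-K1*; *H2-Q2* and the cell type markers were added after their values were seen. Alternatives were no filter, a filter at 3, a pseudocount of 5, median centring, an unmoderated two-sample test, a replicate block, leaving out each library and, added later, a block pairing the regions.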

Additional observations from a re-analysis of the deposited data

Results flagged for a closer look

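Of 70 groups of 4 to 10 libraries looked at, 10 held a library outside Dixon's 95% limit, where chance gives about 1 in 20. Liver SBR library 2 accounts for 6 of them, each low: *H2-Q10* 7.05 (others 7.54 to 7.92), *H2-K1* 9.67 (10.11 to 10.29), *H2-D1* 9.59 (10.04 to 10.27), *B2m* 10.35 (11.11 to 11.52), *Tap2* 4.17 (4.56 to 4.74) and *Tapbp* 6.95 (7.31 to 7.56). Liver sham library 2 was low for *Tap2*, at 3.78 against 4.16 to 4.30. Duodenal SBR-WUSTL0717 library 2 was low for *H2-Q1*, at 6.42 against 7.45 to 7.64, and for *H2-D1*, at 7.35 against 9.28 to 9.42. Ileal SBR library 1 was low for *H2-T23*, at 5.90 against 7.64 to 7.75.

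Some effects had opposite directions in 2 tissues with no overlap of libraries in either, a difference that was not tested. *H2-Q1* lay 1.05 above sham after SBR in the duodenum and 1.20 below it in the ileum (ileum minus duodenum -2.25), and in the liver it lay 1.66 above (liver minus ileum 2.86). The gene was chosen for its ileal and liver values, so that these directions describe the choice, and without sham library 1 the duodenal difference was 0.62. *Nlrc5* with WUSTL0717 lay below sham in the duodenum (-0.87) and ileum (-1.27) and 0.47 above it in the liver, so that liver minus ileum was 1.74 and liver minus duodenum 1.35. In these comparisons 12.8% of all duodenal and 3.73% of all ileal genes were lower and 27.4% of all liver genes higher with no overlap. The limma adjusted p of *Nlrc5* was 0.435 in the duodenum and 0.456 in the ileum, and its liver difference was 0.20 relative to the median of all genes. Liver and intestine were adjusted as separate batches, which rescaled their values.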

How the results depend on the processing

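The tables give no depth, groups of 3 or 4 intestinal libraries leave wide errors, and the liver values as a whole were shifted after SBR. Without a filter, with a filter at 3 and with a pseudocount of 5, each of the 12 counts of called genes stayed as reported. The unmoderated test and the replicate block each left 0 of 10 genes called in the duodenum for treatment against SBR and 0 against sham, where 1 had been called: *H2-Q10* then had adjusted p of 0.139 and 0.061 against SBR and of 0.109 and 0.0506 against sham. Within a tissue, same-numbered libraries did not deviate together (median r -0.01 for duodenal, -0.04 for ileal and -0.01 for liver libraries) and the numbers do not pair them. Between duodenum and ileum, 5 of 11 same-numbered pairs of libraries of 1 group had r over 0.1 (median 0.08, from -0.14 to 0.45), against 8 of 30 pairs of other numbers, so that the numbers were not taken as pairs. A replicate block over those pairs, added after the data were seen, also gave 0 calls in each comparison between regions. With the block 5 genes were called in the liver for SBR against sham and 7 for treatment against sham, *Tap2* being added. The unmoderated test left *Tap1* uncalled in the liver after SBR (adjusted p = 0.0574) and with treatment against sham (0.0628). Centring gave 2 calls in the liver for treatment against SBR and 2 for treatment against sham. Leaving out single libraries gave 0 to 1 call in the duodenum for treatment against SBR, and in the liver 3 to 6 calls for treatment against sham and 4 to 7 for SBR against sham. Directions turned only in differences that were not called. Centring turned *H2-Q1* (0.00) in the duodenum for treatment against SBR, *Tapbp* (0.18) there against sham, *Tap1* (-0.06; -0.16 with the replicate block) in the ileum after SBR, *H2-K1* (-0.14) and *H2-T23* (-0.02) in the liver after SBR, *Tap2* (-0.02) in the treated liver against sham, *Nlrc5* (-0.46) in the regional difference of the SBR effect and *H2-K1* (0.25) between the sham regions. The liver difference of *H2-Q10* (described only) after SBR, 0.19, likewise lay below 0 relative to the median of all genes, at -0.05. Leaving out single libraries turned further differences, with these lowest and highest values. In the duodenum they were -0.01 and 1.16 for *B2m*, -0.33 and 0.64 for *Tap2* and -0.14 and 1.04 for *Tapbp* after SBR; -0.09 and 0.31 for *H2-Q1* and -0.09 and 0.46 for *H2-K1* for treatment against SBR; and -0.13 and 0.89 for *H2-D1*, -0.11 and 0.89 for *H2-T23*, -0.53 and 0.64 for *B2m* and -0.79 and 0.39 for *Tapbp* against sham. In the ileum they were -0.46 and 0.21 for *H2-K1*, -0.28 and 0.43 for *H2-D1*, -0.73 and 0.16 for *H2-T23* and -0.49 and 0.72 for *Tap1* after SBR, -0.70 and 0.09 for *H2-D1* and -0.44 and 0.51 for *Tapbp* for treatment against SBR, -0.14 and 0.02 for *H2-Q10* (described only) after SBR, and -0.09 and 0.83 for *H2-K1* and -0.61 and 0.18 for *H2-D1* against sham. In the liver they were -0.10 and 0.09 for *B2m* after SBR, and -0.04 and 0.07 for *Tap1* 0.00 and 0.08 for *Nlrc5* and -0.02 and 0.08 for *H2-Q1* (described only) for treatment against SBR. Between regions they were -0.59 and 0.69 for *Nlrc5* in the SBR effect, -0.56 and 0.43 for *H2-K1* and -0.41 and 0.55 for *Tap2* in sham, and -0.31 and 0.73 for *H2-T23*, -1.10 and 0.11 for *Tap1*, -0.11 and 0.79 for *Tap2*, -1.09 and 0.19 for *Nlrc5* and -0.19 and 0.34 for *H2-Q10* (described only) in the WUSTL0717 effect. The cause of these shifts was not tested.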
